A study of Mus musculus with 16 samples.

Results

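The Krüppel-like factors (KLFs) are a family of zinc finger transcription factors, and the peaks described here are the differentially accessible ATAC-seq peaks around 10 of their genes, *Klf2*, *Klf3*, *Klf4*, *Klf5*, *Klf6*, *Klf7*, *Klf9*, *Klf10*, *Klf13* and *Klf15*. A peak belonged to one of these genes when the protein-coding start site nearest to its centre was that gene's (basic GENCODE annotation, mm10). This rule gave 216 of 80367 listed peaks. ATAC-seq uses a transposase that cuts and tags open DNA, so that reads pile up at accessible sites. The cells came from small cell lung cancer (SCLC) tumors of *TKO*;*Hes1*GFP/+ mice. In all of these mice *Rb*, *p53* and *p130* had been deleted in the lung by an adenovirus that expresses Cre from the CMV promoter, which is not restricted to one cell type, and 1 *Hes1* allele carried GFP. GFP high cells (Hes1-GFP positive in the labels) are the non-neuroendocrine (non-NE) cells of the tumors, and GFP neg cells are the neuroendocrine (NE) cells. The mice received the virus as young adults, and the tumors of each mouse were pooled months later and sorted. There were 4 pairs of populations from 3 mice, so 2 of the pairs came from 1 mouse, and each of the 8 libraries was read on 2 lanes, which gave 16 runs and 4 libraries for each group.

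The authors listed a peak as more open or more closed in GFP high than in GFP neg cells past their limits on fold change and adjusted p, and these are called opened and closed peaks below. For each peak the lists hold 1 mean normalized count over all libraries of both groups (called mean count below), which says how strong a site was but not in which cells. Values for single libraries are not given here, so the spread between libraries is not set beside the mean counts. The authors' own fold changes, errors and p-values are not used, and no test was run. Wilson intervals at 95% are given for shares of peaks. They cover counting error only, and neighbouring peaks of a locus are not independent. In sorted populations, a site that is open in fewer cells and a site that is less open in each cell cannot be told apart. Assignment by distance does not show which gene a site acts on.

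KLF proteins bind CACCC boxes and GC-rich boxes through the zinc fingers at their C-terminal end, and differ mainly in the N-terminal part that recruits cofactors. KLF2, KLF4, KLF5, KLF6 and KLF7 mostly act as activators, KLF3 recruits the corepressor CtBP, KLF9, KLF10 and KLF13 recruit the corepressor Sin3A, and KLF15 is usually placed outside these groups. In epithelia, KLF4 is known for differentiation and barrier formation and KLF5 for progenitor growth and for maturation of the lung.

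Peaks that carry the results are shown first, as the central 200 bases of the opened or closed peak with the highest mean count (plus strand of mm10). Capitals mark exact motif strings on either strand, here TEAD (CATTCC), NFI (TTGGCA), AP-1 (TGANTCA) and NKX2 (CACTNNAG). The opened and closed peaks of *Klf5* and *Klf6*, the genes with the most peaks, are set side by side. The closed peak of *Klf4* is the strongest closed one of the 10 genes, and the opened peak of *Klf9* is the strongest of that gene.
Klf5 opened, chr14:99584117-99584316: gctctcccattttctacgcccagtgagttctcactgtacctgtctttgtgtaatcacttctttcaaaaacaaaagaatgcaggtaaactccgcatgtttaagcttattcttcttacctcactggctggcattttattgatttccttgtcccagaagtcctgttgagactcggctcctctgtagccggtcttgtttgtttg
Klf5 closed, chr14:99475970-99476169: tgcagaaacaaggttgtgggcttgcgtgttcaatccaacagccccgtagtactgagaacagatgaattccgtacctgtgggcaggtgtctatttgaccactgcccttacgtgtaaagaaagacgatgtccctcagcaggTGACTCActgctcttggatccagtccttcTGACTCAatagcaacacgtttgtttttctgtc
Klf6 opened, chr13:5803809-5804008: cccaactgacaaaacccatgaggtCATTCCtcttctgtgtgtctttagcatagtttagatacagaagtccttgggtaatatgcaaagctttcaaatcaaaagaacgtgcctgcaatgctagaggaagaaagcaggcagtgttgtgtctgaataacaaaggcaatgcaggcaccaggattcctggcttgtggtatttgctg
Klf6 closed, chr13:6191977-6192176: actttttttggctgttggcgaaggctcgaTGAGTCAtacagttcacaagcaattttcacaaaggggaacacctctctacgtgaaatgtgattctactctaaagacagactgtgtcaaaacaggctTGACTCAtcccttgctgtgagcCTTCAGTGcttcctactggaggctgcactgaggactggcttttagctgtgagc
Klf4 closed, chr4:55541586-55541785: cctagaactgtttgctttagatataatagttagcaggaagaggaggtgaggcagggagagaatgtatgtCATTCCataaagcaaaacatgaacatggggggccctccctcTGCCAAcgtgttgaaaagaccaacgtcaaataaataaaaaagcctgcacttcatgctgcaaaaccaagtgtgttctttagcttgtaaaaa
Klf9 opened, chr19:23135707-23135906: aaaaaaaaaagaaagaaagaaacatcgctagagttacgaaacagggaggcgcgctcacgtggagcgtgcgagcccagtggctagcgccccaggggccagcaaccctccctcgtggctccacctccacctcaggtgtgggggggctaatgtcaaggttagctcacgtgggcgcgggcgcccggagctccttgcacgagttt
The closed windows of *Klf5* and *Klf6* hold 2 AP-1 strings each, at 99476109 to 99476115 and 99476138 to 99476144 for *Klf5* and at 6192006 to 6192012 and 6192102 to 6192108 for *Klf6*. The closed *Klf4* window holds a TEAD and an NFI string and no AP-1 string. The windows of the strongest closed peaks of *Klf7* and *Klf13* hold no AP-1 string either, while that of *Klf10* holds one, at 38409514 to 38409520. The opened *Klf6* window holds 1 TEAD string, at 5803833 to 5803838, and neither the opened *Klf5* nor the opened *Klf9* window holds any of the 10 strings searched. Outside these windows the same peaks hold further strings. AP-1 strings are found there in the opened *Klf6* peak (2), the opened *Klf5* peak (1) and the closed *Klf4* peak (2). The opened *Klf9* peak holds a KLF string (given below) outside its window.

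The 250 bases before the RefSeq start (GRCm38.p6) are shown for *Klf4* and *Klf15*, the genes whose RefSeq promoters overlap a listed peak, in the direction of transcription. Capitals mark the E-box CAGCTG and the KLF strings on either strand. The KLF strings were GCCACACCC, GCCACGCCC, GCCCCACCC and GCCCCGCCC.
Klf4 promoter, minus strand, chr4:55532476-55532725: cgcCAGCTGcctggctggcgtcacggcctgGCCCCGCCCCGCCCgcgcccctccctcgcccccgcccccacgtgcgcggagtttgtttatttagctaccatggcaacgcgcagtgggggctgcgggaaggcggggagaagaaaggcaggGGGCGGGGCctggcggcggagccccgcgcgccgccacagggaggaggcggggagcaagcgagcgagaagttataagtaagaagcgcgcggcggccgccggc
Klf15 promoter, plus strand, chr6:90462326-90462575: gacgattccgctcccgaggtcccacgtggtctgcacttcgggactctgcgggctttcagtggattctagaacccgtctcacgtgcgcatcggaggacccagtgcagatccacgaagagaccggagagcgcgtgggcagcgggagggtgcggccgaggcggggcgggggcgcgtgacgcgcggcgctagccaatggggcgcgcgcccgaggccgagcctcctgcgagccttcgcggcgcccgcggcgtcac
The *Klf4* promoter holds 3 KLF strings, of which those at bases 31 to 39 and 36 to 44 of the printed sequence overlap, and the *Klf15* promoter holds none. Of 32851 RefSeq promoters, 14.6% hold a KLF string in the same 250 bases. RefSeq promoters were matched for 8 of the 10 genes, all but *Klf5* and *Klf10*. Besides *Klf4*, *Klf2* and *Klf13* have 2 KLF strings each and *Klf3* has 1, and none of these 3 promoters overlaps a listed peak.

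All 10 genes had at least 1 listed peak, and together they were split evenly between both directions. Of the 216 peaks, 108 were opened and 108 closed, so that 50% were opened (Wilson interval 43.4 to 56.6%), against 50.8% of all listed peaks. The genes differed among themselves. *Klf15* had 10 opened peaks and no closed peak, *Klf9* had 17 opened and 6 closed peaks, and *Klf7* had 3 opened and 15 closed peaks. *Klf2* had a single closed peak, and *Klf3*, *Klf4*, *Klf5*, *Klf6*, *Klf10* and *Klf13* had at least 5 peaks of each kind. Grouped by cofactor, the 5 activator genes had 51 opened peaks of 126 (40.5%, 32.3 to 49.2%), and the 3 genes of Sin3A-binding factors had 29 of 47 (61.7%, 47.4 to 74.2%). These groups differed in distance from the start site, with 82 of the 126 and 8 of the 47 peaks over 100 kb away. All listed peaks, weighted to the same distances (within 10 kb, 10 to 100 kb and over 100 kb), were 39.6% and 49.7% opened. Genes within a group differed. In the Sin3A group, *Klf9* gave 17 of the 29 opened peaks. *Klf10* (46.2% opened, against 48.2% at its distances) and *Klf13* (54.5% against 53.9%) were close to all listed peaks. In the activator group, *Klf4* was 59.1% opened against 42.4%, and *Klf7* 16.7% against 41.9%.

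**Figure D1:**
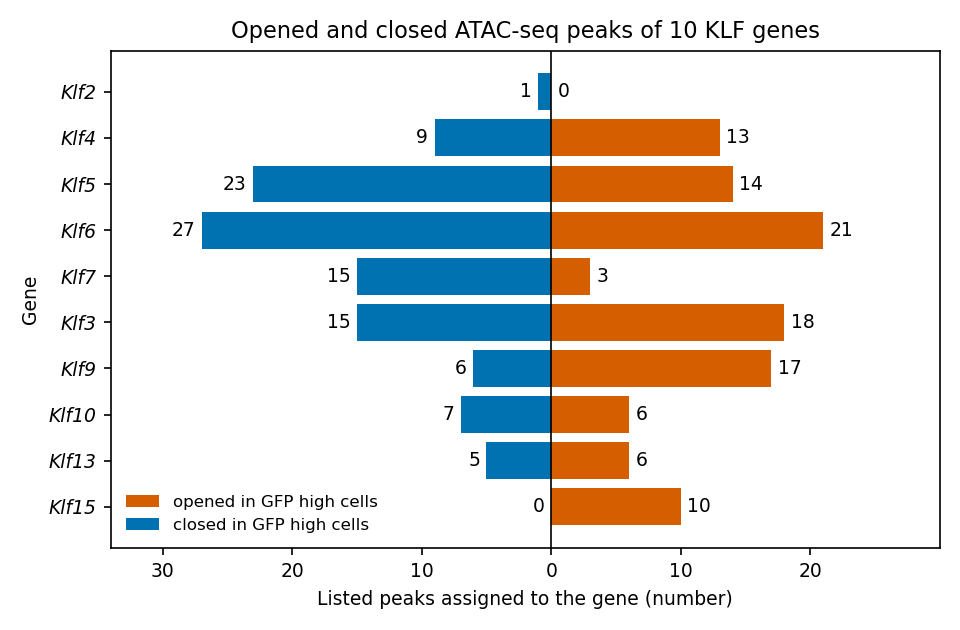
Number of listed peaks assigned to each KLF gene, with peaks opened in GFP high cells to the right of 0 and closed peaks to the left. *Klf15* has opened peaks only, *Klf7* has 15 closed and 3 opened peaks, and *Klf6* has the most peaks of the 10 genes.

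The promoter peaks listed for the 10 genes were all opened. Centres within 1 kb of a start site were found for 10 peaks of 5 genes (*Klf3*, *Klf4*, *Klf9*, *Klf13* and *Klf15*), all opened (10 of 10, Wilson interval 72.2 to 100%). Among all listed promoter peaks, 74.3% were opened. An opened promoter peak was listed for 26.7% and a closed one for 8.46% of all 21827 protein-coding genes, and none of the 10 genes had a closed one. Within 3 kb there were 14 opened peaks of 6 genes, with *Klf7* added, and 2 closed peaks, 1 of *Klf5* and 1 of *Klf10*, and 70.6% of all listed peaks within 3 kb were opened. Of the 206 peaks over 1 kb from a start site, 98 were opened (47.6%, 40.9 to 54.4%), close to the 47.3% of all such peaks. The other peaks lay in exons (3 opened and 1 closed), in introns (29 and 38) and between genes (66 and 69).

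Listed peaks were dense around most of the 10 genes and often far from the start site. Their start sites were the nearest ones for 3577 kb of the genome, and this territory held 6.04 listed peaks per 100 kb, against 2.95 over the territories of all genes. *Klf2* had 1.72 and *Klf4* 3.17 peaks per 100 kb, above 41.5% and 52.8% of all genes, and the other 8 genes had 4.72 to 15.9. The median gene had 1 listed peak. Over 100 kb from the start site lay 50.5% of the KLF peaks, compared with 21.1% of all listed peaks. The share of opened peaks was lower in the farther peaks. Within 10 kb, 20 of 26 KLF peaks were opened (76.9%, 57.9 to 89%), from 10 to 100 kb 47 of 81 (58%, 47.2 to 68.2%), and beyond 100 kb 41 of 109 (37.6%, 29.1 to 47%). All listed peaks had the same order, with 65.4%, 49.6% and 32.5%. With the distances of the KLF peaks, the shares of all listed peaks would give 42.9% opened, or 92.6 of the 216 peaks. These distance classes were chosen after the data were seen.

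**Figure D2:**
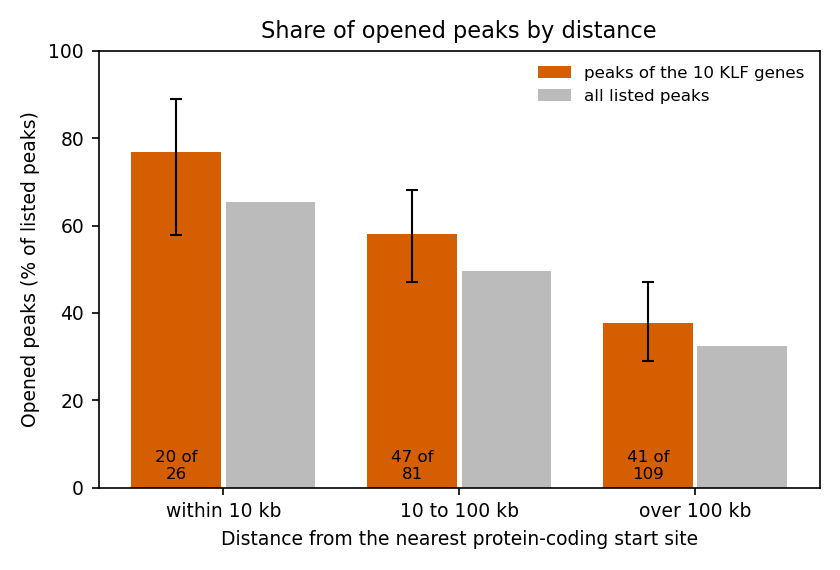
Share of opened peaks, in percent of listed peaks, by distance from the nearest protein-coding start site, for the peaks of the 10 KLF genes (bars with Wilson 95% intervals and counts) and for all listed peaks (grey). The share is lower in each farther class in both, from 76.9% to 37.6% in the KLF peaks.

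Opened KLF peaks were stronger and wider than closed ones, as were opened peaks over all genes. The median mean count was 60.04 in opened and 27.24 in closed KLF peaks, and 40.69 and 25.75 in all listed peaks. The median widths were 325.5 and 249 bp, against 300 and 248 bp. GC content in the central 200 bases had a median of 49.75% in opened and 46.25% in closed KLF peaks, against 50.5% and 48.5%. Since a wider peak collects more reads, peaks were also compared per 100 bp. On this scale the highest were the closed *Klf6* peak with 83.6 reads per 100 bp, the opened *Klf5* peak with 80.0, the opened *Klf9* peak with 78.9, the *Klf4* promoter peak with 76.9 and a *Klf15* promoter peak with 70.6, against a median of 12.7 over the 216 peaks.

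**Figure D3:**
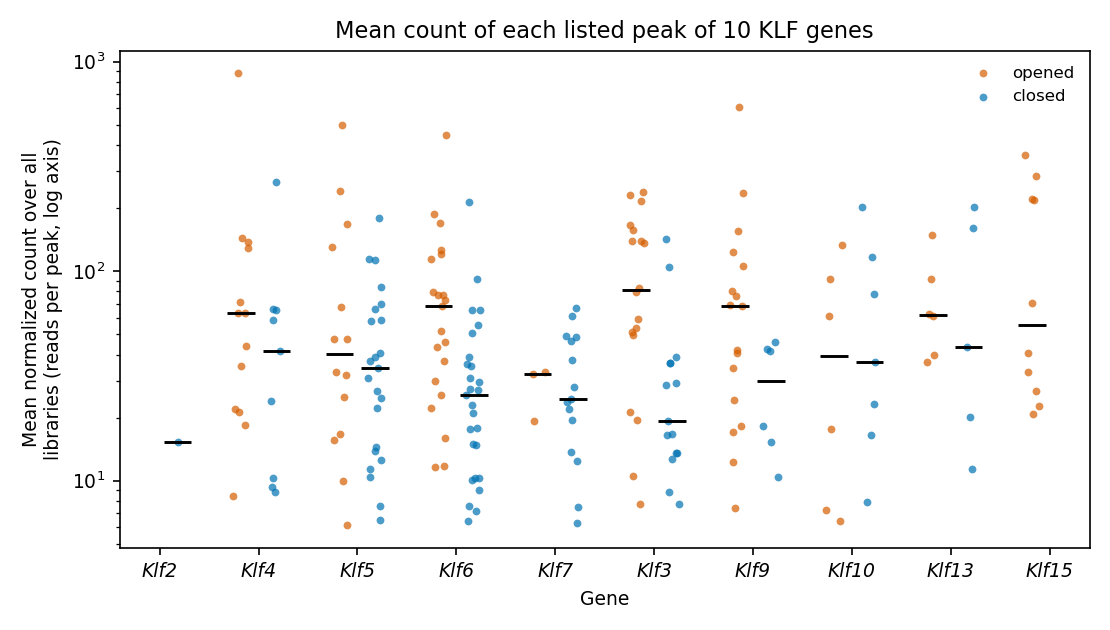
Mean normalized count over all libraries (reads per peak, log axis) of each listed peak of the 10 KLF genes, with opened and closed peaks side by side and the median as a bar. The highest point is the opened *Klf4* promoter peak at 879, and the opened medians are above the closed ones in all 8 genes that have both kinds.

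*Klf4*, known for epithelial differentiation and as one of the factors used to induce pluripotency, had the strongest peak of the 10 genes at its own promoter. The gene lies at chr4:55527143-55532466 on the minus strand, with 13 opened and 9 closed peaks (59.1% opened, 38.7 to 76.7%, against 42.4% at these distances in all listed peaks). The promoter peak, chr4:55532170-55533312, was opened, with its centre 275 bp before the start site. It was 1143 bp wide, and its mean count of 879 was above 99.7% of opened peaks. It was flanked by an opened peak in the coding exon 2.04 kb downstream of the start (mean count 137) and one 1.37 kb upstream (71.2). Together with opened peaks 42.9 kb and 51.9 kb downstream (22.1 and 129.5), these formed a stretch of 5 opened peaks over 53.6 kb. The strongest closed peak was the next one beyond that upstream neighbour, chr4:55541352-55542021, 9.22 kb from the start, with a mean count of 268 (above 98.8% of closed peaks). Farther upstream the gene has a wide territory without another protein-coding start, in which opened and closed peaks alternated up to 581.5 kb away. The strongest of these was an opened peak 242 kb upstream with a mean count of 143.

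*Klf2*, the close relative of *Klf4* that keeps endothelium quiescent and is induced with it through the kinase ERK5, had a single listed peak. It was closed, at chr8:72332302-72332548, 13.4 kb downstream of the start, with a mean count of 15.3, which is above only 26.2% of closed peaks. The gene (chr8:72319033-72321656, plus strand) has a territory of 58.1 kb, the smallest of the 10, and 33.2% of all genes have fewer peaks.

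*Klf5* (chr14:99298691-99315036, plus strand) had no promoter peak, and 35 of its 37 peaks lay downstream of the start in the gene-poor stretch toward *Klf12*, whose start is 851 kb away. Of its peaks, 14 were opened and 23 closed (37.8% opened, 24.1 to 53.9%), close to the 38.5% of all listed peaks weighted to the same distances. By number, 99.5% of genes have fewer peaks, and by density (7.05 per 100 kb in a territory of 525.2 kb) 75.9% lie lower. Near the start, a closed peak lay 1.45 kb downstream (mean count 31.0) and an opened one 6.47 kb downstream (169), both inside the gene. Much stronger sites lay far away. The strongest, the opened peak chr14:99583908-99584527 whose centre is printed above, was 285 kb downstream with a mean count of 496. Another opened peak with 242 lay 280 kb downstream, and this peak holds a row of 4 overlapping KLF strings. The longest closed stretch was 6 peaks over 34.6 kb, from chr14:99453857 to 99488423, with mean counts from 11.4 to 178.5. Its highest peak is the closed window printed above, 177 kb downstream. This closed stretch lay nearer to *Klf5* than the strongest opened peaks, but opened and closed peaks alternated along the flank, and the 37 peaks formed 14 stretches of one kind.

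*Klf6* (chr13:5861482-5870394, plus strand), an injury-induced factor and candidate tumor suppressor, had the most peaks, 48, more than 99.8% of all genes. Its territory of 969.5 kb was also the largest of the 10. The density of 4.95 peaks per 100 kb was above that of 65.2% of all genes. Of the 48 peaks, 21 were opened and 27 closed (43.8% opened, 30.7 to 57.7%, against 38.2% at these distances), and 35 lay upstream, 16 opened and 19 closed. Within 100 kb there were 11 opened and 3 closed peaks (78.6% opened, against 55.7% of all listed peaks at that distance). Beyond 100 kb there were 10 opened and 24 closed peaks (29.4%, against 32.5%). The share was lower beyond 100 kb in all listed peaks too. The strongest opened peak, chr13:5803466-5804353, lay 57.6 kb upstream with a mean count of 447, between opened neighbours of 77.1 and 79.6. Further opened peaks lay 19.9 kb (169), 91.7 kb (121) and 148 kb (187) upstream. Near the end of *Klf6*, both in untranslated exon sequence, a closed peak 7.18 kb downstream of the start (91.5) was followed by an opened one at 8.59 kb (51.8). A similar pair lay 331 and 332 kb downstream, where the strongest closed peak, chr13:6191950-6192204 (213), was next to an opened one (126). Opened and closed sites were thus interleaved, and the 48 peaks in order formed 24 stretches of one kind.

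*Klf7* (chr1:64029447-64122282, minus strand), which is known for its part in neuronal differentiation and axon outgrowth, had mostly closed peaks. Of 18 peaks, 15 were closed and 16.7% were opened (5.84 to 39.2%), against 41.9% of all listed peaks weighted to the same distances. Inside the gene, 5 closed peaks were intronic, and the strongest closed one, chr1:64090626-64090974, lay 30.7 kb downstream of the start with a mean count of 66.6. A stretch of 6 closed peaks ran over 68.9 kb from chr1:64022090 to 64090974, with mean counts from 12.4 to 66.6. The only opened peak near the gene was 107 bp wide, in an intron 2.43 kb downstream of the start (32.3). The other opened peaks lay 125 kb downstream (32.9) and 180 kb upstream (19.4). No peak of *Klf7* reached the mean counts of the strongest peaks of *Klf4*, *Klf5* or *Klf6*.

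**Figure D4:**
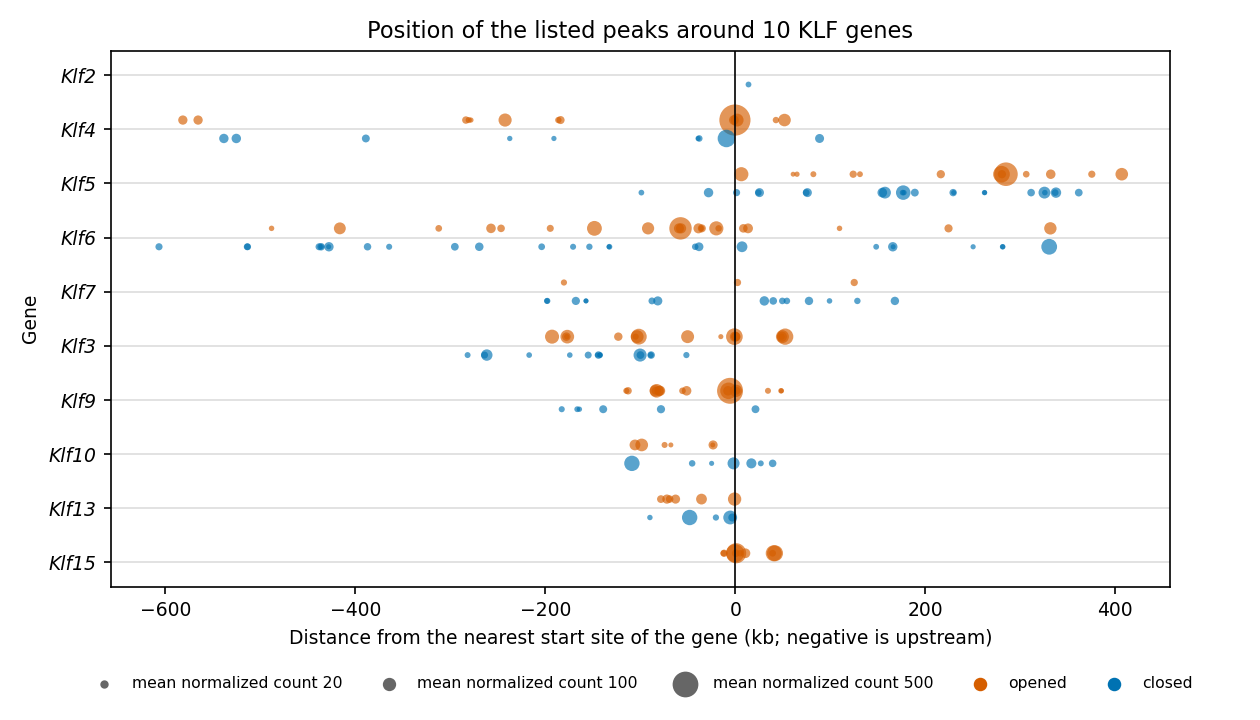
Position of each listed peak along the gene, as the distance in kb of its centre from the nearest start site (negative is upstream), for opened (upper) and closed (lower) peaks of each gene. The area of a point grows with the mean normalized count. *Klf15* has opened points only within 42.0 kb, *Klf5* has nearly all points downstream, and *Klf3* has no closed point downstream.

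*Klf3* (chr5:64803388-64832901, plus strand), whose product represses through CtBP, had 18 opened and 15 closed peaks (54.5% opened, 38 to 70.2%, against 41.7% of all listed peaks weighted to the same distances), and these were divided by position. All 15 closed peaks were upstream, the nearest 51.4 kb away, while all 6 downstream peaks were opened. From 50.1 kb upstream to 52.6 kb downstream, all 10 listed peaks were opened, a stretch of 112 kb. It held 4 promoter peaks. One lay 759 bp after the first of 2 annotated start sites (mean count 59.3), and 3 surrounded the second start inside the gene, with mean counts of 239, 82.9 and 53.5. Of these, chr5:64811062-64811928 was the strongest peak of *Klf3*. An opened group of 4 peaks from 48.9 to 52.6 kb downstream reached 230. About 100 kb upstream, opened and closed sites were neighbours, with an opened peak of 215 at 101.5 kb and the strongest closed peak, chr5:64703031-64703495 (142), at 100.1 kb. Farther out, a closed peak of 104.6 lay 261.5 kb upstream and opened peaks of 166 and 157 lay 193 kb and 177 kb upstream.

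*Klf9* (chr19:23141226-23168134, plus strand), which is induced by glucocorticoids and thyroid hormone, had 17 opened and 6 closed peaks (73.9% opened, 53.5 to 87.5%, against 48.6% of all listed peaks weighted to the same distances). Its strongest peak, chr19:23135425-23136190, was opened 5.42 kb upstream with a mean count of 604, above 98.6% of opened peaks, and lay within 1 kb of the start of the transcript 2410080I02Rik. With opened neighbours of 237 and 69.2 it formed a group from 5.42 to 7.59 kb upstream. The promoter peak, chr19:23142000-23142292, lay 920 bp after the start (124), followed at 1.31 kb by a peak of 40.6. A second opened group of 5 peaks lay 79.1 to 84.1 kb upstream, with mean counts from 42.0 to 155. The closed peaks had mean counts from 10.4 to 45.9, with a median of 29.83, against 25.75 in all closed peaks. The closed peak nearest to the start was in the gene, 21.4 kb downstream (41.4), and 4 of the 6 were over 100 kb upstream.

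*Klf10* (chr15:38291463-38300706, minus strand), the TGF-beta-inducible early gene, had 6 opened and 7 closed peaks (46.2% opened, 23.2 to 70.9%, against 48.2% at these distances). Closed peaks were nearest to the gene. A stretch of 4 closed peaks over 43.1 kb included one 1.73 kb upstream of the start (mean count 117). The others lay 17.03 to 39.43 kb downstream, with mean counts from 16.5 to 77.4. All 6 opened peaks were upstream, from 23.3 to 105.5 kb. The strongest opened peak was chr15:38398842-38399417 (133), and the strongest closed peak, chr15:38409213-38409665 (202), lay at the far end of the territory, 109 kb upstream and next to an opened peak of 91.9.

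*Klf13* (chr7:63886351-63938915, minus strand), known for the activation of chemokine expression in T cells, had 6 opened and 5 closed peaks (54.5% opened, 28 to 78.7%, against 53.9% at these distances). An opened peak, chr7:63925337-63925636 (mean count 148), lay 616 bp before an alternative start inside the gene. Upstream of the first start, the nearest peaks were closed, at 3.06 kb (43.4) and 5.25 kb (161), as was the strongest peak of the gene, chr7:63986470-63987226, 47.9 kb upstream (202.5, above 97.7% of closed peaks). The 4 opened peaks from 62.8 to 78.2 kb upstream had mean counts from 36.7 to 62.6. The annotated starts of *Klf13* were thus flanked by an opened site at one and closed sites at another.

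*Klf15* (chr6:90462576-90475238, plus strand), a glucocorticoid-induced regulator of amino acid and glucose metabolism, had opened peaks only, 10 in 62.91 kb. This is 15.9 peaks per 100 kb, the highest density of the 10 genes and above that of 94.6% of all genes. Its promoter peaks were chr6:90462324-90462753, with its centre 38 bp before the first start (mean count 285), chr6:90463109-90463368 (40.6) and chr6:90463411-90463917 (358, the highest of the gene). Weaker opened peaks lay 11.6 and 12.2 kb upstream (33.2 and 20.7) and 4.98 and 10.8 kb downstream (22.8 and 70.6). A group of 3 opened peaks from 39.4 to 42.0 kb downstream, in an intron of *Aldh1l1*, had mean counts of 26.7, 222 and 219. With 10 of 10 opened, the Wilson interval ran from 72.2 to 100%, and all listed peaks weighted to the distances of these peaks were 55.9% opened.

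Sequence strings of 10 factor families were searched in the KLF peaks and in the whole lists. A string was counted once for each peak, on either strand, in the central 200 bases, and a peak could hold several. The window was 200 bases also for narrower peaks, down to 73 bp among the KLF peaks. A string counted for such a peak can therefore lie just outside it. TEAD was found in 23 of 108 opened and 9 of 108 closed KLF peaks (21.3%, 14.6 to 29.9%, and 8.33%, 4.45 to 15.1%), against 18.1% and 8.78% of all opened and closed peaks. The NFI string was found in 21.3% of opened and 7.41% of closed KLF peaks (18% and 13.4% of all), and AP-1 in 10.2% and 28.7% (10.6% and 26.4%). The E-box string CAGCTG was found in 9.26% and 19.4% (12% and 22.6%). For FOX (TGTTTAC) the shares were 10.2% and 7.41% (6.85% and 9.7%), and for NKX2 20.4% and 14.8% (17.9% and 16.5%). For RBPJ (GTGGGAA), which takes Notch signals to DNA, they were 6.48% and 5.56% (5.74% and 4.02%), and for RUNX (TGTGGTT) 6.48% and 4.63% (8.35% and 3.58%). GRHL (AACCNGTT) was in the windows of 5 opened peaks (4.63%) and of 0 of 108 closed ones, which allows up to 3.43% by the Wilson interval, against 3.47% and 1.61%. In these central windows, the share of all listed peaks lay within the Wilson interval of the KLF peaks in all 20 cases. In whole peaks this failed for FOX in opened peaks (15.7%, 10.1 to 23.8%, against 9.5%) and for RBPJ in closed peaks (10.2%, 5.78 to 17.3%, against 5.68%).

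The family's own motif was searched in the same central windows with the 4 KLF strings given above. One of them was found in 8 opened KLF peaks (7.41%, 3.8 to 13.9%, against 8.39% of all opened peaks) and in 6 closed ones (5.56%, 2.57 to 11.6%, against 3.18%). Of these 14 peaks, 5 were around *Klf3*, 3 around *Klf4*, 2 each around *Klf5* and *Klf9*, and 1 each around *Klf6* and *Klf7*. Counts for single genes in these windows were small. Among the genes with over 15 opened peaks, *Klf6* held the TEAD string in 8 of 21 opened peaks (38.1%, 20.8 to 59.1%), *Klf9* in 3 of 17 (17.6%, 6.19 to 41%) and *Klf3* in 2 of 18 (11.1%, 3.1 to 32.8%), against 18.1% of all opened peaks. AP-1 was in 9 of 23 closed peaks of *Klf5* (39.1%, 22.2 to 59.2%), 7 of 27 of *Klf6* (25.9%, 13.2 to 44.7%), 5 of 15 of *Klf7* (33.3%, 15.2 to 58.3%) and 2 of 15 of *Klf3* (13.3%, 3.74 to 37.9%), against 26.4% of all closed peaks.

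**Figure D5:**
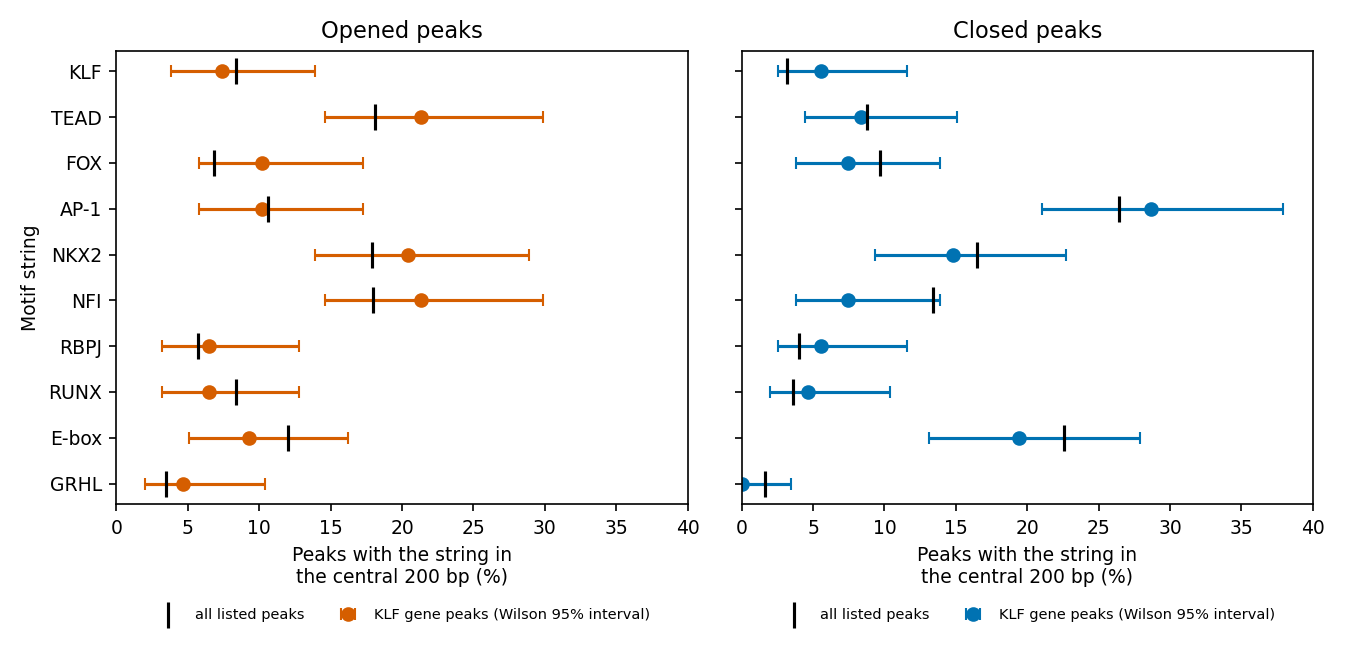
Share of the KLF gene peaks, in percent, with each motif string in the central 200 bp, for opened (left) and closed (right) peaks, with Wilson 95% intervals. Black marks give the share of all listed peaks of the same direction, which lies inside the interval of the KLF peaks in each row.

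Other genes of the family and of its pathway were counted in the same way. The 16 other KLF and SP genes had 136 peaks, 75 opened and 61 closed (55.1% opened, against 50.8% of all listed peaks). This share was not weighted for distance. Over 100 kb from the start site lay 74 of the 136, and 32.5% of all listed peaks that far away were opened. *Klf12* had 48 and *Klf14* 25 of the 136 peaks. An opened promoter peak was listed for 6 of the 16 genes, *Klf16*, *Sp1*, *Sp2*, *Sp3*, *Sp5* and *Sp6*, and a closed one for *Klf8*, *Klf12* and *Sp7*. The 19 genes of cofactors and regulators had 196 peaks, 115 opened and 81 closed (58.7% opened), with an opened promoter peak in 14 and a closed one in 2. Over all protein-coding genes these shares were 26.7% and 8.46%. Corepressor genes with an opened promoter peak were *Ctbp1* and *Ctbp2*, the partners of KLF3, *Sin3a* and *Hdac1*, and the acetyltransferase genes *Ep300* and *Crebbp* had one too. Of the other corepressor genes, *Hdac2* had 4 closed peaks and no opened one, and *Sin3b* had 1 opened and 2 closed peaks, with no promoter peak listed for either. *Ctbp2* had 8 opened and 10 closed peaks in all. On the ERK5 route to *Klf2* and *Klf4*, *Map2k5*, *Mapk7* (ERK5), *Mef2a* and *Mef2d* had opened promoter peaks, with 5 opened and 6 closed peaks in all for *Mef2a*, while *Mef2c* had 3 closed promoter peaks and 22 closed peaks of 23. *Nr3c1*, the glucocorticoid receptor gene, had 3 opened promoter peaks and 21 opened peaks of 32. On the TGF-beta route to *Klf10*, *Tgfbr1*, *Tgfbr2* and *Smad3* had opened promoter peaks, and *Smad3* had 17 opened peaks and no closed one. *Fbxw7*, a ubiquitin ligase subunit for KLF5, had the other closed promoter peak.

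The labels were checked with marker genes. Of 6 NE markers, 5 had a closed and 0 an opened promoter peak, and no peak of the other, *Syp*, was listed. Their peaks were 11 opened and 51 closed, and 8 of the 11 were those of *Chga*, which had 6 closed peaks. All 6 non-NE and club cell markers had an opened promoter peak, with 62 opened and 20 closed peaks in all, of which *Hes1* had 26 and 11. KLF genes are also active in other cell types of the lung. The cells were stained before the sort for CD31, CD45 and TER-119, which mark endothelial, leukocyte and erythroid cells, and for CD24. The paper's methods name CD24 as a positive selection marker. From their wording for another sort, the other stains served for negative selection. None of these stains is a marker of fibroblasts. Of endothelial markers, 1 of 6 had an opened and 1 a closed promoter peak (15 opened and 43 closed peaks). Of leukocyte markers, 0 of 5 had an opened and 1 a closed promoter peak (11 and 10 peaks), and of fibroblast markers 1 of 5 had each (10 and 13 peaks). Over all protein-coding genes, 26.7% had an opened and 8.46% a closed promoter peak, and 50.8% of all listed peaks were opened. The part of these other cell types in the KLF peaks was not tested.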

How the data were processed

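ATAC-seq reads of sorted GFP high and GFP neg SCLC cells were trimmed by the authors, aligned to mm10 with Bowtie2 2.3.4.1, freed of duplicates and used to call narrow peaks with MACS2. The authors merged the peaks of all samples, counted reads in them and compared the groups with DESeq2 1.28.1 (versions from the submitters' processing notes). The deposited lists hold the peaks past an adjusted p of 0.001 and an absolute log2 fold change of 1. For each peak they give the position, a signal value (the authors' mean normalized read count over all libraries) and the authors' fold changes, errors, test statistics and p-values, which were read only to check the sign and the limits of every row and are not reported. Library depths are unknown, and peaks outside the lists were not analysed here.

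Software was Python 3.11.15 and its packages pandas 2.3.3, numpy 2.4.6, pyfaidx 0.9.0.4, scipy 1.17.1 and matplotlib 3.10.9, and the assignment and string search were tested on simulated data. All listed peaks lie within the chromosomes of GRCm38. Positions are 1-based. Classes were set by the peak's centre in the order promoter (within 1 kb of a start site), exon, intron and intergenic. A gene's territory is the part of the genome to which its start sites are the nearest protein-coding ones. The text names the 10 genes, their promoter peaks and their opened and closed peak with the highest mean count, and genes of the other lists with listed promoter peaks. Naming *Syp*, *Hdac2*, *Sin3b*, *Aldh1l1* and further single peaks was decided with their values in view. A marker gene of the NE list is not reported here and was left out of its counts. The genes and lists were chosen with earlier results of these data known. Alternatives were other start sites, distance limits, assignments, points of the peak and promoter distances, a minimum mean count, merging of peaks, leaving out each gene, the whole peak for strings (all 10 families) and, chosen after seeing the data, peaks over 1 kb from a start site only.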

Additional observations from a re-analysis of the deposited data

How the results depend on the processing

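The even split between opened and closed KLF peaks depended on which peaks were counted. With a limit of 100 kb from the start site, 107 peaks remained and 62.6% were opened (55.7% of all listed peaks under that limit). Within 10 kb of the gene body there were 48 peaks and 60.4% were opened (54.2% of all). With a mean count at or above the median of all listed peaks there were 124 peaks and 62.1% were opened (58.9% of all). With a promoter distance of 500 bp, 3 of the genes had an opened promoter peak, in place of 5. In whole peaks, AP-1 and E-box strings were each found in 20.4% of opened KLF peaks (15.1% and 19.8% of all opened peaks). Leaving out each of the 10 genes in turn gave 168 to 215 peaks and 47.2 to 53% opened. Of 120 counts of opened or closed peaks for single genes under the alternatives, 83 were within 1.5 times the reported ones. The other 37 all came from the limits of 100 kb, of 10 kb around the gene body and on the mean count. Other start sites, peak edges and merging of peaks changed the single-gene counts little or not at all.

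No paired analysis was possible because the lists hold no value for each library and the results come from no test. For the same reason no replicate was left out. Stricter limits on fold change or p were not tried, since those columns were not used. The depth behind each value is unknown.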

Other observations

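*Klf12*, the neighbour of *Klf5* on chromosome 14, had 13 opened and 35 closed peaks. Between the start sites of both genes lay 59 listed peaks over 851 kb, or 6.94 per 100 kb, of which 35 were nearer to *Klf5* and 24 nearer to *Klf12*. Of the 59, 27 were opened and 32 closed (45.8% opened). *Klf14* had 20 opened and 5 closed peaks, none of them downstream of its start and none a promoter peak. The highest mean count was 632 in a closed peak of *Klf12* and 179 in an opened peak of *Klf14*. Among all listed peaks 50.8% were opened, and among those over 100 kb from a start site 32.5%. The counts of *Klf12* and *Klf14* were not weighted for distance. Both genes were chosen after their values were seen.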
